A study of Mus musculus with 8 samples.

Results

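The 6 organoid cultures of the series fell into 2 sets by their deposited Mki67 level, and these sets are described here. An organoid above 50 FPKM of Mki67 was placed in the Mki67-high set, and one below 40 FPKM in the Mki67-low set. FPKM is a fragment count scaled to the exon length of the gene and to the size of the library. The Mki67-high set held bile duct organoids 2 and 3 and pancreatic duct organoid 3. The Mki67-low set held bile duct organoid 1 and pancreatic duct organoids 1 and 2. The members are therefore 6 of the 8 libraries, and the genes described are the 12106 of 31228 that reached at least 1 FPKM in 3 or more organoids.

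The organoids were grown in Matrigel from the extrahepatic bile duct (3 cultures) or the pancreatic duct (3 cultures) of C57BL/6 mice, with no genetic change or drug named in the labels. All were started in a medium with Wnt3A, EGF, R-spondin-1, Noggin, FGF10, nicotinamide and Y27632. Wnt3A and Y27632 were withdrawn once hollow organoids had formed, and RNA was taken at passages 3 to 4. The other 2 libraries, 1 of bile duct epithelium and 1 of pancreatic duct epithelium, came from dissected and digested ducts put straight into Trizol. Ages, sexes and the number of mice per sample are not given in the sources used here, nor is it stated whether replicates came from separate mice, so their spread may be technical in part. No growth rate, passage interval or cell count was given either. The names "fast" and "slow" growing would rest on mRNA alone, and the sets are called by their Mki67 level.

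Mki67 encodes Ki-67, a protein of the surface of mitotic chromosomes whose mRNA is made in cycling cells and falls in cells that leave the cycle. Genes of DNA replication are driven by E2F factors around the start of S phase, and genes of mitosis by the MuvB complex with B-Myb and FoxM1 later in the cycle. Ducts of the liver and pancreas are lined by a simple epithelium that carries keratins 7, 8, 18 and 19, and in the adult animal it divides little. When such ducts are put into culture with EGF and R-spondin, or are injured, they re-enter the cycle and take on YAP target genes, so that growth and differentiation state can be read from the same RNA.

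Because the sets were chosen by a measured level, every difference between them is given as a description, with no p-value. Levels are scaled FPKM, that is FPKM corrected for RNA composition across the 6 organoids, and differences are of set means on the log2(scaled FPKM + 1) scale, which understates the change of low genes. A gene was counted as separated where every organoid of a set lay above every organoid of the other, and as separated at least 2-fold where the set means also differed by at least 1 on the log2 scale. Of 12106 genes, 2002 (16.5%) were separated with the Mki67-high set higher and 2276 (18.8%) with it lower, together 4278 (35.3%). Fewer organoids separate more easily: leaving out 1 organoid gave 18.9 to 27.9% higher and 21.3 to 27.4% lower, with 27.9% and 27.4% without pancreatic duct organoid 1 (3323 and 3268 of 11920 genes). Of the separated genes 46.8% were higher in the Mki67-high set, and on FPKM as deposited, with no scaling, this share was 66.3%, with 2997 genes higher and 1524 lower. That scaling moved the median of all genes by 0.08 on the log2 scale. At least 2-fold separation held for 130 genes with the Mki67-high set higher (1.07%) and for 356 with it lower (2.94%), together 486 (4.01%). Of these, 31 of the 130 and 42 of the 356 passed the level filter only through the 3 organoids of the higher set, so they could be counted in that direction alone. The median size of the difference over all genes, in either direction, was 0.22.

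The sets differed in more than Mki67. The whole-number steps of the deposited values implied between 18394802 and 20828215 reads in the Mki67-high libraries and between 15405377 and 17813446 in the Mki67-low libraries, with no overlap, so depth and set cannot be told apart. Xist, the nuclear RNA of the inactive X chromosome, was deposited at 81.3 to 89.1 FPKM in the Mki67-high and 19.7 to 23.6 FPKM in the Mki67-low organoids. Genes of the Y chromosome had 9, 14 and 9 reads in the Mki67-high organoids and 0 in all 3 Mki67-low organoids and both epithelia. The share of FPKM from mitochondrial genes overlapped (5.44 to 6.13% against 5.43 to 7.29%). The part of these features in the differences below was not tested.

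**Figure D1:**
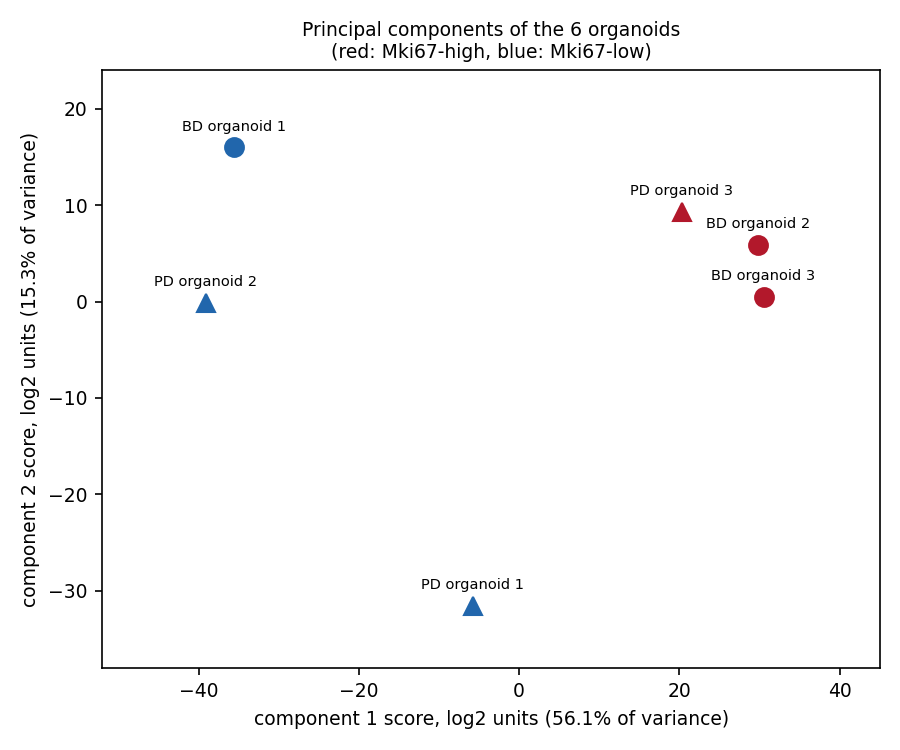
Scores of the 6 organoids on the first and second principal components of log2(scaled FPKM + 1) over 12106 genes, with circles for bile duct (BD) and triangles for pancreatic duct (PD) organoids. The Mki67-high organoids (red) lie between 20.3 and 30.5 on component 1, and the Mki67-low organoids (blue) between -39.1 and -5.8.

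The first principal component held 56.1% of the variance among the organoids and placed the 3 Mki67-high organoids at 29.8, 30.5 and 20.3, close to each other. The Mki67-low organoids were spread more widely, with bile duct organoid 1 at -35.6, pancreatic duct organoid 2 at -39.1 and pancreatic duct organoid 1 at -5.8. The second component held 15.3% and set pancreatic duct organoid 1 apart at -31.6, where the other 5 lay between -0.1 and 16.0. Each set held both organs, so the difference between sets could also be taken inside each organ. Across the 12106 genes the difference within bile duct organoids (2 against 1) and that within pancreatic duct organoids (1 against 2) had a Pearson correlation of 0.573, a description across genes of values that share no library. Genes are not independent replicates, and the depth and Xist differences above ran the same way in both organs.

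Mki67, the gene that fixed the sets, lies on chromosome 7 from 135689784 to 135716361 in build GRCm38. Its deposited FPKM was 66.8 in bile duct organoid 2, 65.9 in bile duct organoid 3 and 56.8 in pancreatic duct organoid 3. It was 23.6 in bile duct organoid 1, 31.2 in pancreatic duct organoid 1 and 18.5 in pancreatic duct organoid 2. The members nearest the thresholds were therefore pancreatic duct organoid 3 at 56.8 and pancreatic duct organoid 1 at 31.2, and no organoid lay between them. These levels rested on 11908 to 13430 reads in the Mki67-high and 3266 to 4837 in the Mki67-low organoids. Both epithelia were below every organoid, at 6.00 FPKM in the bile duct and 3.04 FPKM in the pancreatic duct library. In bulk RNA, fewer cycling cells and less Mki67 mRNA per cycling cell cannot be told apart.

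The promoters of Mki67 and of 4 further cell cycle genes are shown because these genes share short promoter elements on which cell cycle timing is known to rest. Each sequence is the 150 bases before the RefSeq start in GRCm38.p6, read 5′ to 3′ on the gene's strand. They are Mki67 (chr7:135716380-135716529, minus strand), Ccnb1 for cyclin B1 (chr13:100786487-100786636, minus), Cdk1 for the mitotic kinase (chr10:69352913-69353062, minus), and Mcm5 (chr8:75109359-75109508, plus) and Mcm6 (chr1:128359706-128359855, minus) for subunits of the replicative helicase. Capitals mark matches on either strand to TTTGAA, the core of the cell cycle genes homology region, to CCAAT, and to the E2F-like words, which were TTGGCGC, the related word TTCGCGC, and a further word, TTCCCGC. Overlapping matches run together.
Mki67: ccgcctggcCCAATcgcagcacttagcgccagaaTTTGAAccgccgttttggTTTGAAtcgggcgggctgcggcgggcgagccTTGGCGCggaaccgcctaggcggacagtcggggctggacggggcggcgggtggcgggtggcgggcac
Ccnb1: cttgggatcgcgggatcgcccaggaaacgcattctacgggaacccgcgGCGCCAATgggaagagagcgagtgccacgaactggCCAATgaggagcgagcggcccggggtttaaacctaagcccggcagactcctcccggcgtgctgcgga
Cdk1: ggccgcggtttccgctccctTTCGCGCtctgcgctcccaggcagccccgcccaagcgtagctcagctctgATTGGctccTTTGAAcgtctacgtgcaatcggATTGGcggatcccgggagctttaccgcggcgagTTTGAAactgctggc
Mcm5: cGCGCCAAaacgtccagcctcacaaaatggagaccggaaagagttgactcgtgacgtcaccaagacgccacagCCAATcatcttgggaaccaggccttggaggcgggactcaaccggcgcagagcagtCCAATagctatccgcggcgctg
Mcm6: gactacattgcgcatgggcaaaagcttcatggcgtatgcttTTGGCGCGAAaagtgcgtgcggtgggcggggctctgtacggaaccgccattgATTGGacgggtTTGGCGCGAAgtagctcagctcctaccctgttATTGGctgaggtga
Mki67 held all 3 kinds of word, with TTTGAA at 116 and 98 bases, CCAAT at 141 bases and TTGGCGC at 67 bases before the start. Cdk1 held TTTGAA at 71 and 15 bases, whereas the windows of Ccnb1, Mcm5 and Mcm6 held CCAAT and E2F-like words and no TTTGAA. In windows of 250 bases, TTTGAA was present in 37.2% of 43 windows of mitosis genes (41 of 50 genes matched) and in 14.6% of 48 windows of DNA replication genes (40 of 50 matched), beside 16.0% of all 32851 RefSeq windows. E2F-like words were present in 11.6% of mitosis, 39.6% of DNA replication and 6.69% of all windows, and CCAAT in 74.4%, 60.4% and 33.8%. A match is a string of letters and not a measured binding site.

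Many genes of DNA replication and of mitosis were higher in every Mki67-high organoid. All 50 measured members of the mitosis list passed the level filter, and 33 were separated with the Mki67-high set higher and 0 with it lower, beside 16.5% and 18.8% of all genes. Of the DNA replication list 49 of 50 passed, with 31 separated higher and 0 lower. The median difference was 0.51 for mitosis and 0.47 for DNA replication, where that of all genes was near 0. It was 0.47 and 0.43 within bile duct and 0.49 and 0.45 within pancreatic duct organoids. E2f2, an S phase transcription factor named after its values were seen, was the 1 gene separated at least 2-fold, beside 1.07% of all genes. The 99 genes ranged from 0.03 to 1.12. The difference of Mki67, 1.27, is that of the gene the sets were cut on and cannot be set against theirs.

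The 4 widest gaps of the mitosis list belonged to Cenpf, Cenpe, Ncapg and Cenpa. Cenpf, a kinetochore protein, had 10.4, 11.7 and 10.6 scaled FPKM in bile duct organoids 2 and 3 and pancreatic duct organoid 3, against 5.40, 6.73 and 4.82 in bile duct organoid 1 and pancreatic duct organoids 1 and 2. The same order of libraries, Mki67-high first, is kept from here on. Cenpe, the kinetochore motor, had 13.1, 14.1 and 12.2 against 6.72, 8.96 and 6.12 scaled FPKM. Ncapg, a condensin subunit, had 9.36, 10.8 and 9.15 against 5.72, 6.73 and 3.64, and Cenpa, the centromeric histone, had 15.6, 18.0 and 14.8 against 9.17, 11.2 and 8.74. In each of the 4 genes the highest Mki67-low library was pancreatic duct organoid 1. Top2a, which untangles replicated DNA, had 62.8, 60.8 and 58.5 against 47.0, 44.1 and 33.4 scaled FPKM, a difference of 0.55 without overlap. Cdc20, the activator of the anaphase-promoting complex, overlapped: pancreatic duct organoid 1 had 111 scaled FPKM, above the 97.1 of pancreatic duct organoid 3.

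The 4 replication genes with the widest gaps were Tk1, E2f8, Mcm10 and Chaf1a. Tk1, the thymidine kinase of S phase, had 17.5, 19.0 and 18.5 against 8.35, 11.3 and 8.03 scaled FPKM, a difference of 0.94. E2f8, a repressor of E2F targets, had 11.5, 11.3 and 10.1 against 5.32, 7.02 and 4.05. Mcm10, which helps to start the replication fork, had 8.81, 8.82 and 8.32 against 4.79, 6.07 and 3.83, and Chaf1a, which places histones on new DNA, 27.9, 28.8 and 28.0 against 17.1, 21.9 and 13.3. In all 4 genes each Mki67-high library stood above each Mki67-low one. The abundant Pcna, the sliding clamp of the DNA polymerases, differed by 0.39 (102, 107 and 104 against 84.2, 91.7 and 66.1 scaled FPKM). Mcm2, a helicase subunit, did not separate, since pancreatic duct organoid 1 at 28.8 scaled FPKM lay inside the 27.8 to 29.8 of the Mki67-high organoids. Cdk1 did not either, with 24.7, 27.6 and 23.1 against 22.0, 26.2 and 14.5 scaled FPKM.

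Cell cycle expression was thus graded among the organoids and not in 2 steps. The summed scaled FPKM of the mitosis list was 1254, 1326 and 1147 in the Mki67-high organoids and 882, 1071 and 635 in the Mki67-low organoids. That of the DNA replication list was 1178, 1269 and 1137 against 839, 1077 and 646. Pancreatic duct organoid 1 stood just below pancreatic duct organoid 3 in both sums, and pancreatic duct organoid 2 was the lowest. Without pancreatic duct organoid 1 the medians were 0.69 for mitosis and 0.60 for DNA replication, with 47 of 50 and 44 of 49 genes separated higher (27.9% of all genes under that setting), and without pancreatic duct organoid 2 the medians were 0.31 and 0.30. The epithelia summed to 171 (bile duct) and 91.0 (pancreatic duct) for mitosis and to 236 and 207 for DNA replication, below every organoid.

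**Figure D2:**
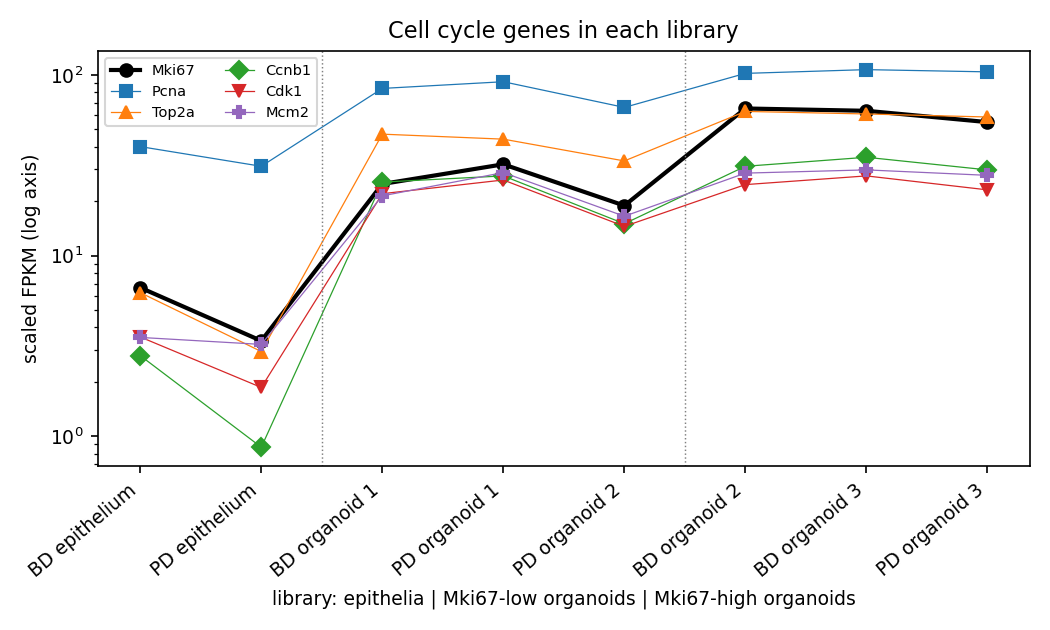
Scaled FPKM on a log axis of Mki67 and 5 cell cycle genes in the 8 libraries, with lines joining the points of a gene. Mki67 (black) is above 50 in the 3 Mki67-high organoids and below 33 in the Mki67-low ones, whereas Pcna spans 66.1 to 107 across all 6, and every gene is lowest in the epithelia.

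CDK inhibitors and p53 targets were taken in 1 list with the D cyclins and their kinases, which drive the cycle, and the list was mixed. Of 31 CDK inhibitors, D cyclins and p53 targets, 30 passed, of which 3 were separated higher in the Mki67-high set (Cdkn2d, Cdk6 and Rbl1, by 0.29 to 0.47), 6 lower and 21 overlapped, beside 16.5% higher and 18.8% lower among all genes. Without pancreatic duct organoid 1, 10 were higher and 7 lower, beside 27.9% and 27.4% of all genes. The list median was -0.02 and changed sign on unscaled FPKM (0.06), within bile duct organoids (0.05) and within pancreatic duct organoids (0.03). Cdkn2b, the TGF-beta-responsive inhibitor of CDK4 and CDK6, was the widest, at 28.8, 26.1 and 26.8 scaled FPKM against 65.3, 55.8 and 80.6. Each Mki67-low organoid thus held a higher level than any Mki67-high organoid. Cdkn1a, which encodes the p53 target p21, was closer, at 50.5, 72.7 and 53.4 against 79.7, 75.3 and 88.1 scaled FPKM. Gadd45a, a stress gene, had 3.51, 3.16 and 5.35 against 15.9, 7.92 and 11.5, and Plk2, a p53-responsive kinase, 30.3, 40.9 and 36.3 against 79.5, 69.2 and 72.7. Both were lower in every Mki67-high organoid. Cdkn2a, a tumour suppressor locus that many cultured cells switch on, overlapped at 19.0, 27.3 and 41.2 against 26.2, 51.6 and 27.4 scaled FPKM, whereas the epithelia had 0.0733 (bile duct) and 0.245 (pancreatic duct). Cyclin D1 (Ccnd1), which carries growth factor signals to the cycle, also overlapped, at 168, 201 and 181 against 167, 272 and 171.

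Of 32 measured genes of Myc and of ribosome building 31 passed. Of the 31, 3 were separated higher (Ncl, Gnl3 and Ddx18) and 1 lower (Mycn), beside 16.5% and 18.8% of all genes. Without pancreatic duct organoid 1 the number higher was 22 (27.9% of all genes), and on unscaled FPKM it was 9 (24.8% of all genes). The median of 0.20 was 0.29 within bile duct and 0.06 within pancreatic duct organoids, 0.31 without pancreatic duct organoid 1 and 0.10 without pancreatic duct organoid 2. Myc itself overlapped, at 68.8, 70.5 and 59.8 against 64.0, 90.6 and 83.9 scaled FPKM. Ncl, the nucleolar protein nucleolin, had 131, 147 and 129 against 91.6, 114 and 81.0. Mycn, the relative of Myc, ran the other way, at 2.09, 3.39 and 6.63 against 14.2, 10.2 and 10.0 scaled FPKM.

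**Figure D3:**
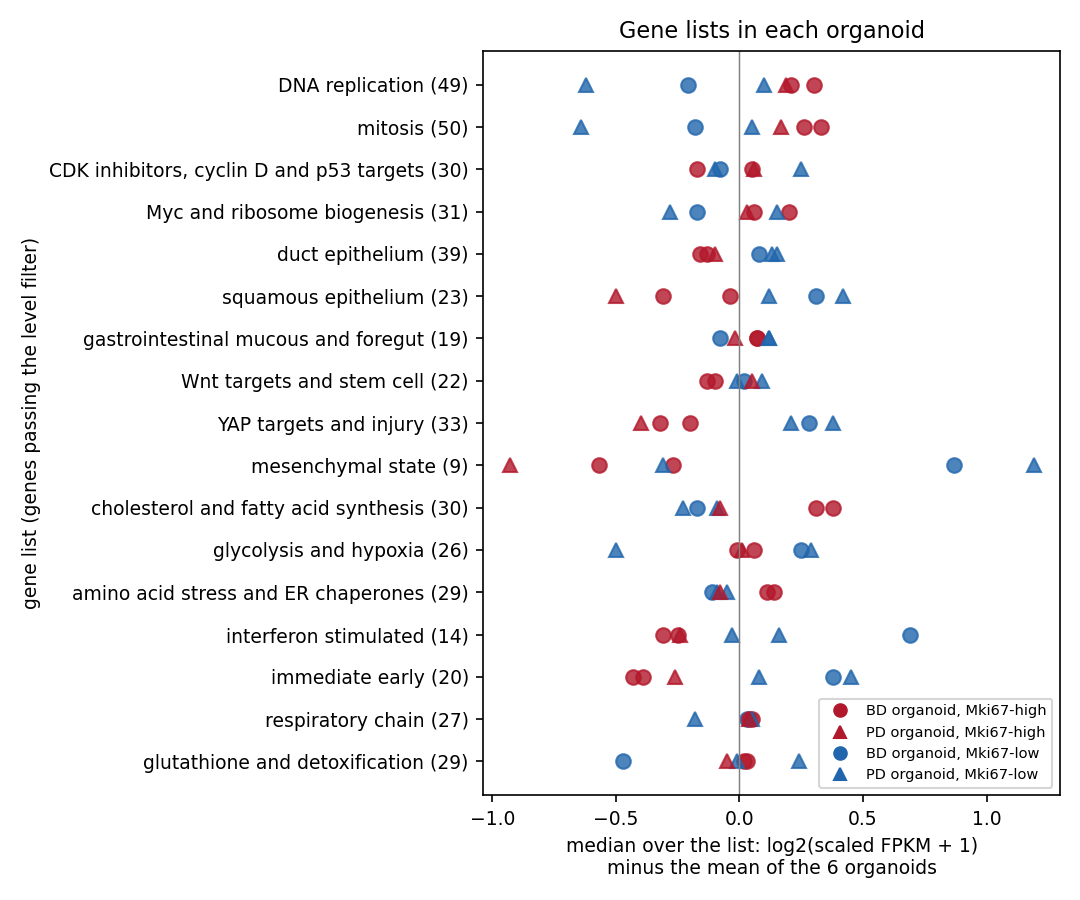
For each gene list (number of genes passing the level filter in brackets), the median over the list of log2(scaled FPKM + 1) minus the mean of the 6 organoids, 1 point per organoid; red is Mki67-high, blue Mki67-low, circles bile duct (BD) and triangles pancreatic duct (PD). Red points lie right of all blue points for mitosis and DNA replication. They do so narrowly for cholesterol and fatty acid synthesis (lowest red -0.08, highest blue -0.09). They lie left of all blue points for duct epithelium, squamous epithelium, YAP targets, interferon stimulated and immediate early genes. The squamous list holds 3 genes that passed the filter only through the Mki67-low organoids, so its order is no support for a direction.

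Keratins of simple epithelium were expressed in both sets, which does not by itself establish duct identity. The keratins of simple epithelium were above 90 scaled FPKM in every organoid, and Hnf4a, an epithelial factor of liver and gut, was between 63.3 and 99.4. Of 40 duct epithelium genes 39 passed, all but Sctr, which was at most 0.0259 scaled FPKM in any organoid. Among the 39, 2 were separated higher (Aqp5 and Onecut2), 12 lower, and 25 overlapped, beside 16.5% higher and 18.8% lower among all genes. The number higher was 6 without pancreatic duct organoid 1 (27.9% of all genes) and 4 without bile duct organoid 3 or without pancreatic duct organoid 3 (19.3% and 21.8%). The list median was -0.26. That median was -0.16 on unscaled FPKM and also -0.16 without bile duct organoid 2, and it was -0.45 within bile duct and -0.23 within pancreatic duct organoids. Krt8 had 2464, 2602 and 1562 scaled FPKM in the Mki67-high organoids and 3952, 4670 and 3280 in the Mki67-low organoids. Its partner Krt18 had 1944, 2150 and 1302 against 3399, 3166 and 2508. Both were higher in every Mki67-low organoid and higher in all 6 than in either epithelium. Krt7 and Krt19 overlapped between the sets, and pancreatic duct organoid 1 held the highest level of both, 312 and 2150 scaled FPKM.

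Among 4 duct genes of the tight junction, Cldn3 and Cldn4 had gaps of 0.90, whereas Cldn7 and Tjp1 had gaps of 0.04 and 0.15 on the log2 scale. Cldn4, a claudin that tightens the paracellular barrier, had 44.1, 52.8 and 98.5 scaled FPKM against 477, 184 and 502, a difference of -2.51. Cldn3 had 95.6, 98.2 and 99.9 against 209, 208 and 188. Within each set the Cldn3 values were close together, and the sets lay far apart. The water channel Aqp5 went the other way, with 135, 123 and 153 against 16.0, 47.8 and 18.8 scaled FPKM, and the epithelia had 25.2 (bile duct) and 3.40 (pancreatic duct). Onecut2, a factor of biliary and pancreatic development, had 61.9, 42.9 and 47.0 against 23.8, 28.8 and 29.4. Sox9, the factor of duct progenitors, overlapped at 38.3, 44.3 and 86.2 against 68.7, 62.7 and 54.9, and the chloride channel Cftr was at most 3.67 scaled FPKM in any organoid.

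Genes of stratified epithelium did not move together. Of 39 squamous genes 23 passed, with 1 separated higher (Cnfn) and 7 lower, beside 16.5% and 18.8% of all genes. Of the 7, Krt17, Krt16 and S100a8 reached 1 FPKM only in the Mki67-low organoids and passed the filter through them alone, so the count and the list median of -0.56 are no support for a direction. Of the 13 members with a mean of at least 5 FPKM, 4 were lower and 0 higher, beside 21.1% and 15.7% of all genes at that level. Krt17, a keratin of wounded and basal epithelium, had 0.0629, 0.135 and 0.507 scaled FPKM against 11.4, 3.65 and 10.6. Krt16, which accompanies it in wounds, had 0.0312, 0.367 and 0.177 against 2.53, 3.66 and 4.54. Sfn, the epithelial 14-3-3 sigma, had 35.1, 36.0 and 22.8 against 107, 72.9 and 78.3. Of these 3, Sfn did not owe its place to the filter. The most abundant members overlapped, with Ly6d at 447, 238 and 292 against 124, 284 and 196 and S100a14 at 286, 235 and 88.6 against 148, 310 and 136. The summed level of the list overlapped as well, at 1263, 974 and 600 against 718, 1091 and 801 scaled FPKM. Krt14 was separated by little, since bile duct organoid 1 at 1.35 lay beside the 1.08 to 1.26 of the Mki67-high organoids while pancreatic duct organoids 1 and 2 had 16.1 and 18.0. The basal keratin Krt5 did not pass the filter and was at most 1.03 scaled FPKM.

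Of 34 gastrointestinal mucous and foregut genes 19 passed, with 2 separated higher (Gcnt3 and Galnt12) and 3 lower (Dmbt1, Ctse and Clca3b), shares below those of all genes (16.5% and 18.8%), and Clca3b passed the filter only through the Mki67-low organoids. The median of 0.02 ran from -0.24 within pancreatic duct to 0.14 within bile duct organoids. Dmbt1, a secreted mucosal defence protein, had 44.7, 16.2 and 27.2 scaled FPKM against 187, 59.5 and 116. It was far higher in the bile duct epithelium, at 1895. Tff2, a peptide secreted with mucus, overlapped at 4.93, 3.13 and 8.40 against 2.23, 10.3 and 14.7 and had 1520 (bile duct) and 272 (pancreatic duct) in the epithelia. Of 12 tuft cell genes 3 passed, and Ptgs1, an enzyme of prostaglandin synthesis that other cells also make, was the 1 separated, at 49.1, 38.2 and 32.2 against 7.18, 22.7 and 17.7.

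Genes of Wnt signalling were mixed. Of 31 listed genes 22 passed, with 3 separated higher (Axin2, Znrf3 and Tcf7l2) and 6 lower (Wnt7a, Wnt7b, Sox4, Cd44, Cd24a and Tcf7), beside 16.5% and 18.8% of all genes. On unscaled FPKM 5 were higher and 5 lower (24.8% and 12.6% of all genes). Without pancreatic duct organoid 3, 5 were higher and 9 lower (21.8% and 26.8% of all genes). The median of -0.13 was 0.01 without pancreatic duct organoid 2, 0.04 within bile duct and -0.03 within pancreatic duct organoids. Wnt7a, a secreted ligand, had 5.72, 6.13 and 5.94 scaled FPKM against 69.6, 23.5 and 75.7. Its close relative Wnt7b had 75.6, 76.5 and 61.3 against 136, 134 and 133. Both were at most 7.87 in the epithelia. Axin2, a feedback target of beta-catenin, was separated by a narrow margin, with 6.68, 6.76 and 15.6 against 5.97, 6.33 and 6.52. The stem cell receptor Lgr5 overlapped, at 2.36, 1.22 and 6.24 against 1.33, 0.687 and 7.02 scaled FPKM.

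Many targets of YAP and genes of epithelial injury were lower in every Mki67-high organoid. Of 34 genes 33 passed, with 1 separated higher (Tead1) and 16 lower, beside 16.5% and 18.8% of all genes. Of the 33, 7 were at least 2-fold lower, beside 2.94% of all genes. The median was -0.63, with -0.50 within bile duct and -0.74 within pancreatic duct organoids. Ankrd1, a direct YAP target, had 68.9, 88.4 and 48.8 scaled FPKM against 268, 210 and 255. Cyr61, a matricellular protein and YAP target, had 47.1, 47.0 and 49.1 against 181, 74.3 and 220. Clu, the secreted chaperone clusterin that marks regenerating epithelium, had 689, 619 and 1048 against 2767, 1751 and 2705. In these genes every Mki67-low organoid was higher, and pancreatic duct organoid 1 was the lowest of that set. Yap1 itself, named after its values were seen, was level, at 22.7, 21.4 and 22.9 against 22.2, 21.8 and 21.5. Spp1, which encodes osteopontin, overlapped and was highest in pancreatic duct organoid 2, at 1473.

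Of 20 mesenchymal genes 9 passed, with 0 separated higher and 6 lower, beside 16.5% and 18.8% of all genes, and a median of -1.24. The other 11 did not pass, and Vim, 1 of the 6, passed only through the Mki67-low organoids, so the median is given as a description only. Fn1, which encodes fibronectin, had 3.21, 4.13 and 11.2 scaled FPKM against 175, 22.8 and 194. Tgfb1, the cytokine TGF-beta 1, had 3.18, 2.77 and 2.61 against 13.2, 4.01 and 13.0. For Fn1 and Tgfb1, pancreatic duct organoid 1 lay nearer to the Mki67-high organoids than to the other Mki67-low organoids. The defining fibroblast genes were near 0, with the 13 listed genes summing to 2.84, 3.03 and 3.88 scaled FPKM in the Mki67-high and 0.832, 0.984 and 1.44 in the Mki67-low organoids, against 2046 and 2094 in the epithelia.

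The 10 genes with the widest gap in the direction of higher Mki67-low levels are given next. Ccl2, a chemokine that draws monocytes, had 2.49, 6.10 and 15.8 scaled FPKM against 254, 81.6 and 206, the widest gap in this direction. Rdh10, which makes retinal, had 13.0, 19.0 and 24.1 against 185, 74.0 and 185, and Aldh1a3, which turns retinal into retinoic acid, 0.539, 0.486 and 1.21 against 20.0, 9.50 and 19.5. Lama3, a laminin chain of the epithelial basement membrane, had 3.14, 6.11 and 4.18 against 30.5, 24.8 and 38.1. No organoid crossed between the sets in any of them, as the choice by gap requires. Saa3, an acute phase protein, Clca3b, Tspan2 and Col18a1, a basement membrane collagen whose gene overlaps Slc19a1, made up the rest of the 10 genes with Wnt7a and Krt17. Of these, Clca3b and Krt17 passed the level filter through the Mki67-low organoids alone.

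In the other direction the widest gap was that of Rps2, a protein of the small ribosomal subunit, with 668, 1227 and 719 scaled FPKM against 46.5, 62.0 and 56.0. It has near-identical processed copies, of which Rps2-ps6 was also among the 10 (24.5, 38.9 and 35.6 against 2.04, 3.90 and 2.63), so how reads were shared between them is uncertain and both levels are. Ttr, the thyroid hormone carrier transthyretin, had 138, 35.3 and 81.1 against 14.4, 8.46 and 6.02 scaled FPKM. Hkdc1, a hexokinase relative, had 3.59, 5.67 and 2.89 against 0.773, 0.635 and 0.454, and Smpdl3b, a lipid-cleaving enzyme of the membrane, 21.2, 16.7 and 10.2 against 3.01, 5.11 and 2.82. Each was higher in all 3 Mki67-high organoids, as the choice by gap requires. Hkdc1, and Matn2 named next, passed the level filter through the Mki67-high organoids alone, so they could be counted in this direction only. Sema4g, Matn2, Asrgl1, Aqp5 and Hmgb1, a chromatin protein whose gene overlaps Uspl1 and Gm8615, completed the 10. Of the genes separated at least 2-fold, 74 of the 130 higher and 317 of the 356 lower in the Mki67-high set were protein-coding (56.9% and 89.0%), where 87.9% of all 12106 genes were.

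**Figure D4:**
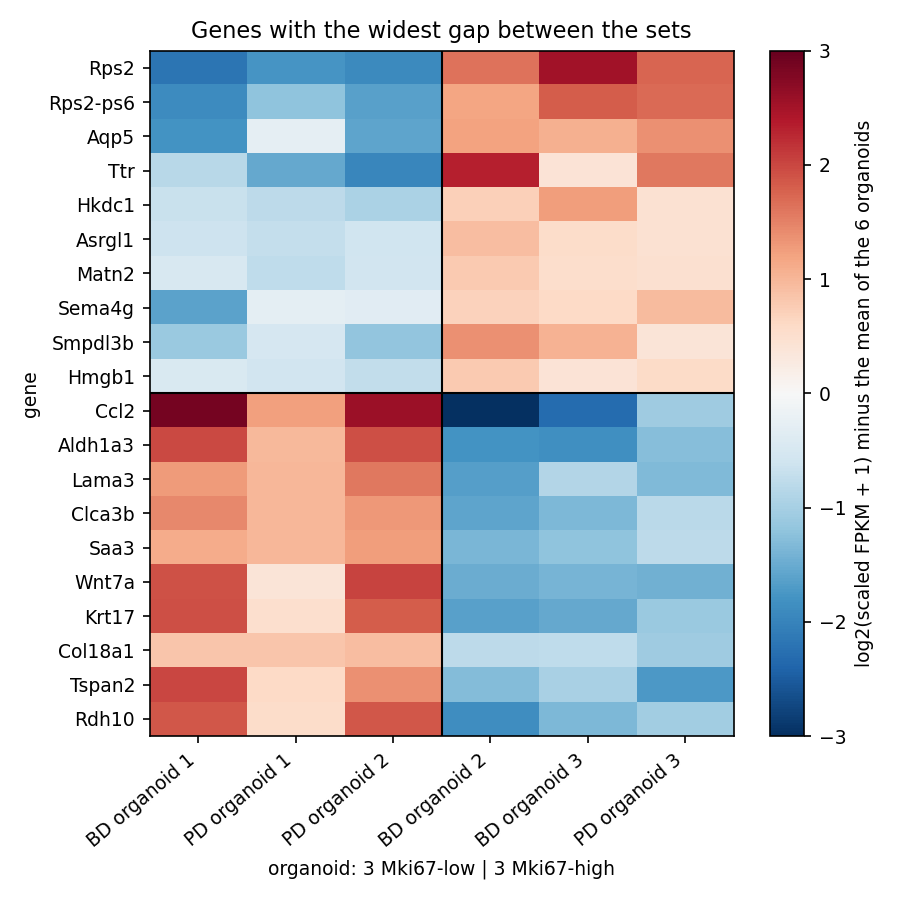
Log2(scaled FPKM + 1) minus the mean of the 6 organoids for the 10 genes with the widest gap in each direction, in the 3 Mki67-low and 3 Mki67-high organoids. Colours are red above and blue below the mean; these genes were picked for their separation, and pancreatic duct organoid 1 is paler than the other Mki67-low organoids for Wnt7a, Krt17 and Rdh10.

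Many immediate early genes, which answer growth factors and stress within minutes, were lower in every Mki67-high organoid. Of 24 genes 20 passed, with 0 separated higher and 11 lower, beside 16.5% and 18.8% of all genes, and a median of -0.71 (-0.92 within bile duct and -0.59 within pancreatic duct organoids). Klf6, a zinc finger factor, had 19.8, 19.7 and 15.4 scaled FPKM against 66.7, 38.0 and 61.2. Atf3, a stress factor, had 2.15, 2.01 and 2.43 against 11.2, 5.25 and 13.0. Dusp1, a phosphatase of MAP kinases, had 9.72, 8.30 and 13.0 against 17.5, 17.4 and 44.5 and was 242 and 325 in the epithelia, which had been through digestion. Of 32 interferon-stimulated genes 14 passed, with 0 separated higher and 6 lower, beside the same shares, and a median of -0.50. That median was -0.97 within bile duct and -0.29 within pancreatic duct organoids. B2m, the light chain of MHC class I, had 165, 145 and 157 against 388, 193 and 313 scaled FPKM. Ifi27 had 7.49, 8.25 and 12.0 against 42.6, 14.3 and 20.3, and bile duct organoid 1 was the highest organoid for both. The bile duct and pancreatic duct epithelium were higher still, at 2190 and 1713 for B2m and 74.6 and 94.4 for Ifi27.

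Genes of lipid synthesis had a larger median difference within the bile duct than within the pancreatic duct organoids, which was not tested. All 30 genes of cholesterol and fatty acid synthesis passed, with 12 separated higher in the Mki67-high set and 0 lower, beside 16.5% and 18.8% of all genes, and a median of 0.37. The median was 0.53 within bile duct but 0.07 within pancreatic duct organoids, where 12 were higher and 6 lower (33.9% and 34.5% of all genes). Without pancreatic duct organoid 3 the number separated higher was 27 (21.8% of all genes). Scd1, which puts the double bond into fatty acids, had 122, 108 and 75.7 scaled FPKM against 46.5, 37.6 and 39.0. Elovl6, a fatty acid elongase, had 26.4, 28.7 and 20.8 against 6.95, 15.3 and 5.43. Both separated in either organ. Hmgcs1, an early enzyme of the cholesterol pathway, had 294 and 263 against 188 in bile duct organoids, but 147 against 158 and 153 in pancreatic duct organoids.

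The other metabolic lists were mixed, with shares near or below the 16.5% higher and 18.8% lower of all genes, and single libraries moved them. Of 26 genes of glycolysis and hypoxia, 2 were separated higher (Pfkp and Ldha) and 1 lower (Hk1), with a median of -0.02 that was 0.08 on unscaled FPKM. Without pancreatic duct organoid 1 these numbers were 3 and 12 (27.9% and 27.4% of all genes), with a median of -0.23. Respiratory chain genes had 5 of 27 higher and 1 lower (median 0.11). The list had 12 higher with a median of 0.20 without pancreatic duct organoid 1 (27.9% of all genes), and 11 on unscaled FPKM (24.8%). Without pancreatic duct organoid 2 it had 5 higher and 4 lower (20.7% and 22.6% of all genes), with a median of 0.03. Glutathione and detoxification genes had 4 of 29 higher and 6 lower, with a median of 0.08 that was 0.61 within bile duct and -0.12 within pancreatic duct organoids. It was 0.32 without pancreatic duct organoid 1, with 10 higher (27.9% of all genes), and -0.10 without bile duct organoid 1. In the list of amino acid stress and ER chaperones 4 of 29 were higher and 2 lower, with a median of 0.12 that was 0.22 within bile duct and -0.02 within pancreatic duct organoids. The number higher was 10 without pancreatic duct organoid 1 (27.9% of all genes), 11 without pancreatic duct organoid 3 (21.8%) and 8 on unscaled FPKM (24.8%). The higher genes included Slc7a5, a transporter of large amino acids, at 44.8, 55.1 and 31.9 scaled FPKM against 16.4, 28.5 and 19.1. Psat1, of serine synthesis, had 66.6, 83.8 and 78.4 against 28.2, 59.4 and 31.7. The chaperone Hspa5 was level, at 212, 206 and 190 against 226, 194 and 191.

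The kinds of RNA in the libraries also differed between the sets. Antisense, intronic and unclassified (TEC) transcripts made up 0.334 to 0.363% of FPKM in the Mki67-high and 0.184 to 0.239% in the Mki67-low organoids. Small nucleolar and small nuclear RNAs made up 0.225 to 0.261% against 0.111 to 0.168%, and processed pseudogenes 7.30 to 7.81% against 8.18 to 8.24%. None of these ranges overlapped. Of 111 antisense genes 36.0% were separated higher in the Mki67-high set and 4.50% lower, beside 16.5% and 18.8% of all genes. Of 741 processed pseudogenes 7.02% were higher and 33.7% lower. Among the genes of the longest eighth by exon length (8718 to 41324 bases) 25.9% were separated higher, beside 13.7% of the shortest eighth. Mki67 belongs to that longest eighth, with 10061 bases of exon. When each cell cycle list was split at its median exon length, the shorter and the longer genes had medians of 0.51 and 0.55 for mitosis and 0.44 and 0.47 for DNA replication.

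**Figure D5:**
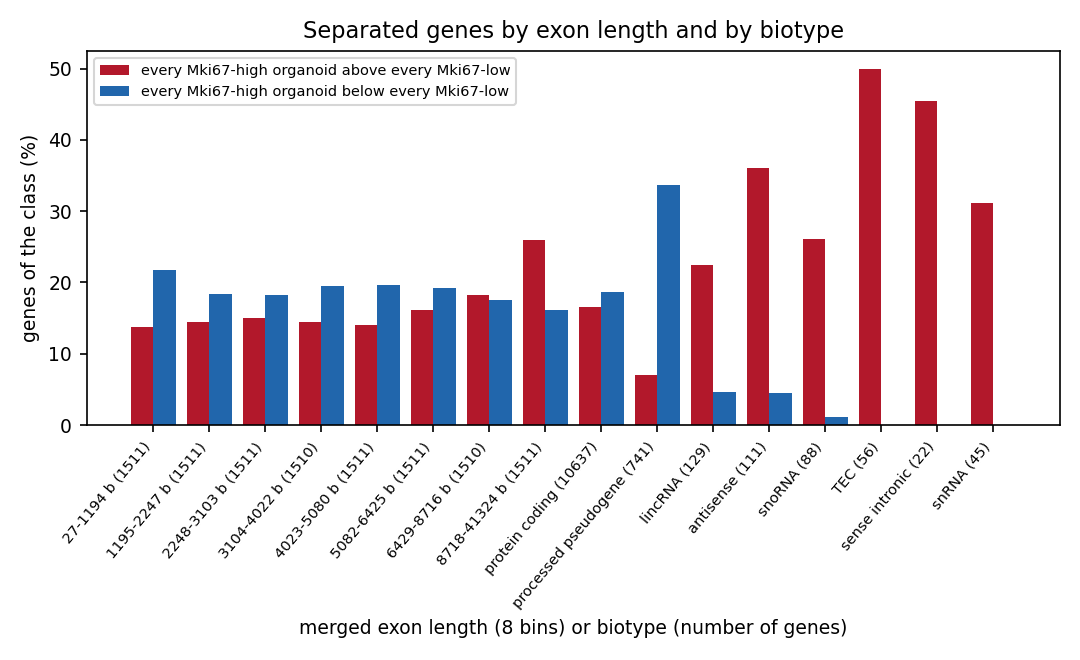
Percent of genes separated between the sets, higher (red) or lower (blue) in the Mki67-high organoids, for 8 bins of exon length in bases (b) and for 8 biotypes. The share higher is 25.9% in the longest bin and 50.0% of TEC genes, and the share lower is 33.7% of processed pseudogenes. Among all genes these shares are 16.5% higher and 18.8% lower.

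Markers of most other cell types were low in both sets, hepatocyte genes apart. The 16 acinar genes summed to 2.43 to 8.90 scaled FPKM over the 6 organoids, against 27143 and 55776 in the bile duct and pancreatic duct epithelium, and 8 of them were at 0 in every organoid. Endocrine genes summed to at most 1.74, endothelial genes to at most 0.520 and smooth muscle genes to at most 2.40. Leukocyte genes summed to 3.92, 2.77 and 6.04 in the Mki67-high organoids and to 6.18 and 7.78 in bile duct organoid 1 and pancreatic duct organoid 1. They were highest in pancreatic duct organoid 2, where Cd68, a lysosomal gene, made up 11.1. Ptprc, the pan-leukocyte CD45 gene, was at most 0.008. Neural genes summed to between 1.51 and 4.41 and intestinal absorptive genes to between 10.3 and 48.1. Hepatocyte genes summed to 249, 119 and 156 against 99.2, 110 and 78.9, most of it Hnf4a and Ttr, while Alb was at most 3.29. Of the 3 that passed, Ttr and Apob were separated at least 2-fold with the Mki67-high set higher, beside 1.07% of all genes. The bile duct and pancreatic duct epithelium had 423 and 110.

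The epithelia took no part in choosing the sets. Genes that passed the level filter only through the set where they are high were left out here, which left 99 of the 130 genes at least 2-fold higher and 314 of the 356 lower. The epithelium was nearer to the Mki67-low mean for 63 (bile duct) and 68 (pancreatic duct) of the 99, and for 144 and 147 of the 314. There is 1 library for each epithelium, so these counts carry no replicate error.

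The labelled groups with replicates were the organs. In limma's test of 3 bile duct against 3 pancreatic duct organoids, with Benjamini-Hochberg adjustment over 12106 genes, 0 genes (0%) passed an adjusted p of 0.05, 310 (2.56%) had an unadjusted p under 0.05, and the smallest adjusted p was 0.987. Each organ held organoids of both Mki67 sets. Of the 128 named genes tested, 4 had an unadjusted p under 0.05 and 0 an adjusted one. They were Tff2, Krt14 and Cdkn2a, with bile minus pancreatic differences of -1.46, -2.06 and -0.68 (SE 0.28, 0.81 and 0.26), and Hmgcs1, at 0.67 (SE 0.18). Mki67 is not among them.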

How the data were processed

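RNA was measured in 8 mouse libraries (6 organoids, 2 epithelia). The authors deposited FPKM in 1 table of 31228 genes; TopHat2, HISAT2 2.1.0, Bowtie2 2.2.3 and HTSeq 0.6.0 are named in the submitters' processing notes, with no roles given, and strand use is not given in the sources used here. Coordinates are those of the table, in GRCm38 (28593 of 31099 genes found in GENCODE M21 had identical coordinates). Values times exon length were whole multiples of a step per library for 28268 genes (90.5%) within 0.05 of a read, and read numbers come from these steps; no count model was run. Per-sample columns left aside numbered 0.

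Sets came from deposited Mki67 FPKM (above 50, below 40). FPKM was scaled by a trimmed mean of log ratios (30% of ratios and 5% of levels trimmed), genes with at least 1 FPKM in 3 organoids were kept, and log2(FPKM + 1) was used. Only organ was tested (limma 3.58.1, R 4.3.3, intensity trend, Benjamini-Hochberg), after the scripts were tested on simulated data. Shares of FPKM by RNA kind use deposited values.

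The members and all gene lists were chosen with earlier results of these data known. Genes named were Mki67 and the 10 protein-coding genes with the widest gap each way, with predicted-gene names left out. The gap is the lowest organoid of the higher set minus the highest of the other. Also named were the 4 widest and 2 most abundant genes of each list, and a set of 22 cell cycle and duct genes. Genes outside this rule that spell out small counts, and Yap1, Hnf4a, Cd68, Ptprc and Alb, were named after their values were seen. Alternatives were no scaling, median-of-ratios scaling, a pseudocount of 0.1, other level filters, within-organ differences and leaving out each organoid.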

Additional observations from a re-analysis of the deposited data

Results flagged for a closer look

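For 10 named genes the Mki67-high organoids all lay above the Mki67-low organoids in 1 organ and all below them in the other. The difference between organs was not tested, since it rests on 2 against 1 bile duct and 1 against 2 pancreatic duct organoids. How many of all genes did the same was not counted, so the 10 are listed and not read as reversals particular to an organ. Differences are Mki67-high minus Mki67-low on the log2(scaled FPKM + 1) scale, bile duct first. The keratins of duct epithelium were Krt7 (0.15 and -1.24) and Krt19 (0.30 and -1.26). Other surface and secreted products were Muc1, a membrane mucin (-1.01 and 1.41), Tff2 (0.62 and -0.50), Cftr (-0.60 and 0.35), S100a14 (0.80 and -1.20) and Perp, a desmosomal p53 target (0.13 and -0.34). The remaining genes were Sox9 (-0.72 and 0.55), Myc (0.12 and -0.54) and Hmgcs1 (0.56 and -0.07).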

How the results depend on the processing

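The 130 genes separated at least 2-fold with the Mki67-high set higher became 264 with a pseudocount of 0.1, 60 where a mean of at least 5 FPKM was asked, and 392 within bile duct organoids (2 against 1). The 356 lower genes became 688 within bile duct organoids. Leaving out 1 organoid gave 111 to 219 higher and 295 to 536 lower genes, the highest of both without pancreatic duct organoid 1. The organ test called 0 genes on unscaled FPKM, with a pseudocount of 0.1 and with at least 1 FPKM asked in 1 organoid. It was not run with median-of-ratios scaling or a mean of at least 5 FPKM. When an organoid was left out it called 0 to 11, with 11 without pancreatic duct organoid 3 (10 toward the pancreatic side, 1 toward the biliary). The cause was not tested. With the replicate number as a block it called 0 genes (293 at an unadjusted p under 0.05). Whether same-numbered organoids are paired is not stated in the sources used here. Deviations from the organ mean correlated at -0.104, -0.441 and 0.481 for organoids numbered 1, 2 and 3. The organoids numbered 2 lay in different Mki67 sets, so these values cannot settle the pairing. Of 1898 values of lists and named genes under these alternatives, 1760 moved by less than the spread between organoids and 138 by more. Depth limits the levels under 1 FPKM most, and depth ran with the sets.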

Other observations

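These genes were chosen after their values were seen, and their levels are scaled FPKM, Mki67-high first, in the order bile duct organoids 2 and 3 and pancreatic duct organoid 3, then bile duct organoid 1 and pancreatic duct organoids 1 and 2. They were picked because the sets do not overlap, so no statement on a group rests on them. Csf1, a growth factor of macrophages, had 2.37, 3.23 and 6.04 against 80.6, 13.1 and 47.0, and Lif, a cytokine of the interleukin 6 family, 2.63, 3.49 and 3.77 against 26.7, 7.86 and 32.8. Ptgs2, the inducible cyclooxygenase, had 2.43, 2.59 and 4.79 against 37.0, 9.23 and 69.8. Tnfaip3 and Nfkbie, which restrain NF-kappaB, had 7.77, 7.28 and 7.28 against 37.3, 13.6 and 25.6 and 1.81, 2.41 and 3.02 against 13.5, 7.34 and 9.24. Pancreatic duct organoid 1 was the lowest of the Mki67-low set in all 5. Msn, which links actin to the membrane, had 23.0, 31.6 and 33.5 against 167, 80.8 and 197, and Tuba1a, a tubulin, 14.1, 14.6 and 11.9 against 87.8, 34.8 and 66.2.

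Of 75 cytosolic ribosomal protein genes 20 were separated with the Mki67-high set higher (26.7%, beside 16.5% of all genes) and 7 lower (9.33%, beside 18.8%), with a median difference of 0.06. Rps2, Rpl26, Rpl21 and Rpl35a, 4 of the 75, were higher by at least 2-fold, beside 1.07% of all genes. Rpl26 had 132, 69.1 and 20.4 against 13.1, 12.6 and 9.93, whereas Rps3 was level at 281, 275 and 276 against 275, 269 and 305. Processed copies of ribosomal protein genes share reads with their parents, so these 4 levels are uncertain. Among genes higher in the Mki67-high set, Fgfr2, a receptor for the FGF10 in the medium, had 17.3, 10.8 and 15.4 against 6.20, 5.19 and 5.23, and Nr1h4, the bile acid receptor, 9.39, 7.52 and 5.28 against 0.565, 4.42 and 2.58.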
